A study of Mus musculus with 47 samples.

Results

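To determine what exposure to the label itself did to transcript levels, read counts were compared between day 6 (D6) P19 cells after 9 h in 4-thiouridine (4sU) and D6 cells that received none. The rule took the 3 anabolic D6 libraries at time 9 and the 3 at time 0, 6 of the 47 libraries of the series, and used the read count of each mRNA 3′ UTR, not its T-to-C conversions. P19 is a mouse embryonal carcinoma line. All 6 libraries came from cells differentiated for 6 days in NDiff 227 medium with 500 nM retinoic acid; the libraries at 9 h additionally received 500 µM 4sU for 9 h. These are cultures of a single line, which the study's design text calls biological replicates, and each library is named here by its number (37, 38 and 39 at 0 h; 52, 53 and 54 at 9 h). Further comparisons are set beside it. Undifferentiated cells (D0), which received no retinoic acid, were compared at 0 and 9 h of 20 µM 4sU, so that dose and cell state differ together from D6. Day 6 cells of the catabolic course at the end of labeling with 500 µM 4sU, 15 h by the design used here although the sources also give a shorter time, were compared with the same 0 h libraries. Course and exposure differ together in that comparison. Cells 9 h after washing out 4sU into medium with UTP, named removal here, were compared with the end of labeling.

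4sU is a uridine analog that cells take up, phosphorylate and build into new RNA. In SLAM-seq, iodoacetamide alkylates the thiol group, and reverse transcriptase then reads the modified base as cytosine. A label that alters the transcripts it marks would bias the rates drawn from it, and thiolated uridine at high dose is known to disturb ribosomal RNA production and to evoke a nucleolar stress response that can stabilize p53. The gene lists described here were therefore p53 targets, other stress programs, ribosome production, the cell cycle, metabolism and neuronal identity. QuantSeq libraries prime at the poly(A) tail and read the 3′ end, so that 1 transcript gives reads in 1 place.

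The libraries carried their labels. The conversion rate over all covered thymines was 0.166% ± 0.0275 (SD, n = 3) at 0 h and 3.605% ± 0.586 (n = 3) at 9 h, without overlap (exact permutation test, two-sided, p = 0.1, the smallest that 3 against 3 allows). Reads with a conversion made up 3.90% ± 0.521 of reads at 0 h and 50.6% ± 7.12 at 9 h. Depth on distinct 3′ UTRs was 3602511 to 6977661 reads at 0 h and 1504166 to 4466071 at 9 h (exact permutation p = 0.4, two-sided). Library 53 was the shallowest of the 6 and stood apart from the others. Its Spearman correlation with the other 9 h libraries across 3′ UTRs was 0.537 to 0.553, against 0.774 between libraries 52 and 54 and 0.751 to 0.806 among the 0 h libraries. Of 6612 3′ UTRs with a mean of at least 100 reads, 391 (5.91%) had no read in library 53, and 4 to 26 had none in each of the others. At 0 h, library 38 lay farthest from its group, with a median distance of 0.315 on the log2 scale over 720 genes with at least 1000 reads, against 0.200 and 0.239 for libraries 37 and 39 and 0.574 for library 53. Libraries 52 and 54 had 0.351 and 0.337, each measured against a mean that includes library 53. Why libraries 38 and 53 stood apart was not tested.

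The cells carried the markers of their label. All 27 neuron markers were read in these libraries, and their summed level was 14422 ± 639 CPM (reads scaled to a common library size by TMM over the mRNA transcripts tested, n = 3) at 0 h and 14843 ± 2144 (n = 3) at 9 h. Of 14 neural progenitor markers, Msi1 had no read, and the sum was 3953, 3674 and 3390 CPM at 0 h and 3279, 3680 and 3309 at 9 h. Without library 53 both sums were lower at 9 h without overlap, with ratios of 0.943 for neurons (overlapping when scaled by total reads) and 0.897 for progenitors, whose list holds Hes5. Pluripotent cell markers summed to 18.6 to 43.4 CPM in each library, with no read of Nanog, Zfp42, Dppa5a, Dppa4 or Tdh. Mesenchymal and smooth muscle markers summed to 0.886 to 22.6 CPM (higher at 9 h without overlap once library 53 is left out), and endoderm markers to 0 to 5.61 CPM, lower at 9 h without overlap. Astrocyte markers summed to 166, 164 and 171 CPM at 0 h and 144, 206 and 122 at 9 h, lower without overlap once library 53 is left out, and oligodendrocyte lineage markers to 0.469 to 52.3 CPM. The part of these in the results was not tested. In such bulk samples fewer cells of a type and less RNA per cell cannot be told apart.

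No transcript passed the test after 9 h of 4sU. Of 14994 mRNA transcripts from 9525 genes, 0 were called higher and 0 lower by edgeR's quasi-likelihood test at an adjusted p under 0.05 (Benjamini-Hochberg, 0% called), with a lowest adjusted p of 1.00. At an unadjusted p under 0.05 there were 538 transcripts (3.59%), 302 of them higher (2.01%) and 236 lower (1.57%). Counted once per gene, by the transcript with the most reads, 203 genes were higher (2.13%) and 172 lower (1.81%) at that unadjusted threshold. The groups did not overlap in 483 genes that were higher (5.07%) and 723 that were lower (7.59%); over transcripts these were 748 (4.99%) and 1066 (7.11%). The median log2 fold change over all genes was -0.04, with 4535 positive and 4990 negative. TMM scaling centers most changes near 0, so that a rise or fall shared by all messages cannot be seen here. DESeq2 called 3 transcripts higher and 0 lower, and limma voom with library quality weights called 3 higher and 3 lower.

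How small a change could be seen depended on the reads. The 95% interval of the change lay within a 2-fold rise and a 2-fold fall for 608 genes (6.38%). These had at least 437 reads per library on average, and for 515 of them the estimate was under 0.25 on the log2 scale in either direction. None of the 6516 genes with fewer than 300 reads per library was bounded in this way, whereas 208 of 2289 were between 300 and 1000 reads, 313 of 599 between 1000 and 3000, and 87 of 121 above 3000. The median half-width of the interval was 4.23 on the log2 scale for transcripts under 100 reads and 0.51 above 3000 reads. For the remaining genes the interval reached past 2-fold in at least 1 direction.

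**Figure D1:**
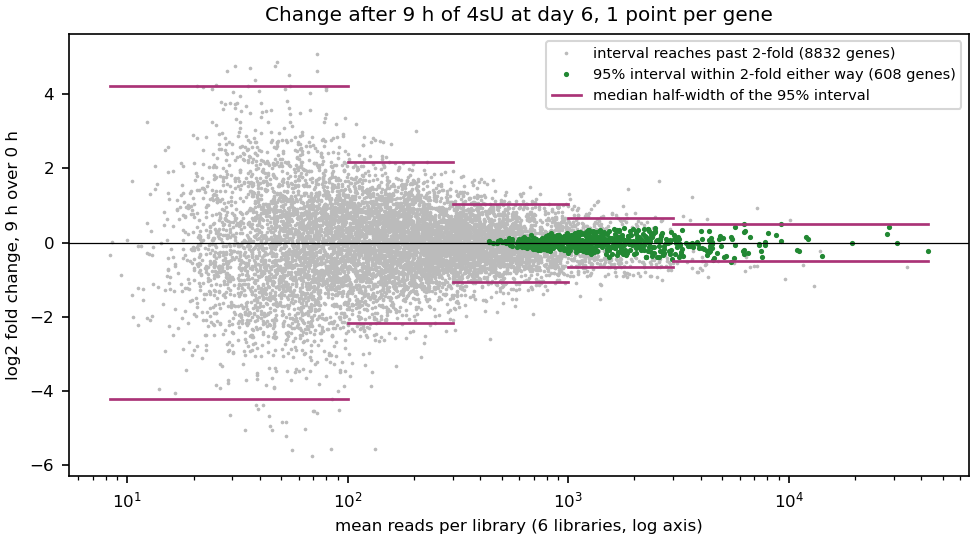
Log2 fold change of each gene at 9 h over 0 h against its mean reads per library (log axis); green points are the 608 genes whose 95% interval lies within 2-fold either way, gray points the 8832 whose interval reaches past it, and purple lines the median half-width of the interval in each range of reads. 85 genes with at most 3 reads over a group, a limit set after the values were seen, are left out; the points narrow toward 0 as reads increase.

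The genes with the most reads, a set of 20 chosen after the values were seen, gave the tightest estimates. Sox11, a transcription factor of immature neurons, had 7307, 9520 and 6348 CPM at 0 h and 6450, 6358 and 7016 at 9 h, a log2 fold change of -0.23 (95% interval -0.59 to 0.14). Tubb5, a beta-tubulin, had 5046, 6100 and 4560 CPM against 5002, 4782 and 5691, a change of -0.02 (-0.38 to 0.34). Both sets of libraries overlapped. Basp1, a growth cone membrane protein, had 4707, 4360 and 4309 CPM against 4455, 6423 and 4845, with library 53 above the other five. Of these 20 genes, 14 had intervals within 2-fold either way, 9 had positive and 11 negative estimates, and 8 were lowest in library 53. Tubb2b, another neuronal beta-tubulin, was the clearest case of that library: it had 5013, 6017 and 7443 CPM at 0 h and 5335, 1367 and 5017 at 9 h (log2 fold change -0.66, SE 0.424). Actb, cytoplasmic actin, had 3372, 5870 and 3946 CPM against 4916, 6935 and 5793 (0.42, SE 0.209), with libraries 38 and 53 the highest of their groups. Tmsb4x, which encodes the actin-binding peptide thymosin beta 4, was low in libraries 38 and 53, with 2164, 569 and 3565 CPM at 0 h and 2438, 987 and 1960 at 9 h. Eef1a1, the elongation factor that brings aminoacyl-tRNA to the ribosome, was lowest in library 38 and highest in library 53, with 454, 109 and 678 CPM against 761, 1648 and 498.

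The smallest p-values among higher genes with many reads belonged to messages for a membrane-associated actin regulator, a translation factor and an iron store. Marcksl1 (3′ UTR at chr4:129515233-129515981, plus strand, mm10), a protein kinase C substrate that binds actin and calmodulin at the plasma membrane, had 213, 136 and 243 CPM at 0 h and 411, 839 and 381 at 9 h. Every 9 h library lay above every 0 h library, and library 53 was the highest. The log2 fold change was 1.46 (SE 0.342, 95% interval 0.73 to 2.19), and it was 0.99 without library 53 and 0.78 without libraries 38 and 53. Its relative Marcks (chr10:37133243-37136107, minus strand), added after the values were seen, had 1303, 1214 and 1650 CPM against 1923, 2440 and 2038, again without overlap (0.62, SE 0.203). Eif5a (chr11:69916712-69917438, minus strand), the hypusinated factor that relieves stalled ribosomes, had 175, 118 and 191 CPM against 262, 479 and 306 (1.12, SE 0.324). Fth1 (chr19:9984943-9985111, plus strand), the ferritin heavy chain, had 158, 222.5 and 131 CPM against 274, 493 and 319 (1.09, SE 0.322). In all 3 genes of the rule the library 53 value was the highest of the 6. None of these passed the adjusted threshold in edgeR.

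Further genes were higher at smaller levels. Tnrc6a, the GW182 partner of Argonaute in microRNA silencing, had 165, 99.3 and 120.5 CPM at 0 h and 220, 259 and 281 at 9 h (0.98, SE 0.318). Cstf2t, a paralog of the cleavage stimulation factor subunit CstF-64, had 60.7, 50.1 and 58.8 CPM against 109, 196 and 131 (1.36, SE 0.407). Cramp1l had 22.9, 29.2 and 53.8 CPM against 84.4, 172 and 84.0 (1.68, SE 0.522). In each of these the groups did not overlap, and library 53 was the highest in Cstf2t and Cramp1l.

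The lower genes described next were among the 12 with the smallest p, and are not in order of p. Npc2 (chr12:84754559-84757125, minus strand), which hands cholesterol on within the lysosome, had 507, 721 and 460 CPM at 0 h and 306, 220 and 316 at 9 h (log2 fold change -1.002, SE 0.275, 95% interval -1.59 to -0.42). Hes5 (chr4:154961676-154962371, plus strand), a Notch effector that holds neural progenitors back from differentiating, had 564, 586 and 421 CPM against 303, 224.3 and 298 (-0.93, SE 0.265). Groups in both genes were apart, and library 53 was the lowest. Top2b (chr14:16430467-16430787, plus strand), the topoisomerase II of postmitotic neurons, had 209, 195 and 296 CPM against 97.2, 40.4 and 121 (-1.43, SE 0.407). H1f0 (chr15:79029307-79030504, plus strand), the linker histone of cells that leave the cycle, had 503, 433 and 421 CPM against 211, 281 and 286 (-0.80, SE 0.262). In H1f0 it was library 52, not 53, that lay lowest.

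Oxct1, the mitochondrial enzyme that lets neurons burn ketone bodies, had 432, 637 and 413 CPM against 264, 236 and 289 (-0.91, SE 0.271). Atp11b, a phospholipid flippase subunit, had 192, 170 and 160 CPM against 42.04, 95.2 and 62.7 (-1.39, SE 0.399). Igf2bp3, a fetal RNA-binding protein, had 139, 236 and 159 CPM against 97.5, 65.2 and 55.8 (-1.29, SE 0.390). Nop10, a core protein of the box H/ACA particles that pseudouridylate ribosomal RNA, had 431, 519 and 366 CPM against 230, 177 and 292 (-0.91, SE 0.284). Ccdc88a, the actin-binding protein girdin, had 92.1, 128 and 105 CPM against 21.7, 1.41 and 30.002 (-2.59, SE 0.763). Leaving out libraries 38 and 53 together made most of these estimates smaller. Eif5a then had a log2 fold change of 0.63, Fth1 1.03, Tnrc6a 0.80, Marcks 0.41, Npc2 -0.65, Hes5 -0.72, Oxct1 -0.63, Nop10 -0.62 and Top2b -1.22, whereas H1f0 had -0.91. Among other genes with many reads, Tubb2b had -0.28 and Rps14 -0.50 without them. Cyp26b1, which degrades retinoic acid, had -0.29 there and -0.64 with all libraries. The homeobox genes Lhx1 and Hoxb9 had -0.24 and -0.41 there, and -0.80 and -0.78 with all libraries. All 24 genes that the smallest p selected, 12 in each direction, had the same sign in each of their 453 alternative values. Of those values, 16 moved by more than 1 SE. The alternatives reuse the libraries that selected these genes, so that equal signs are no independent support.

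**Figure D2:**
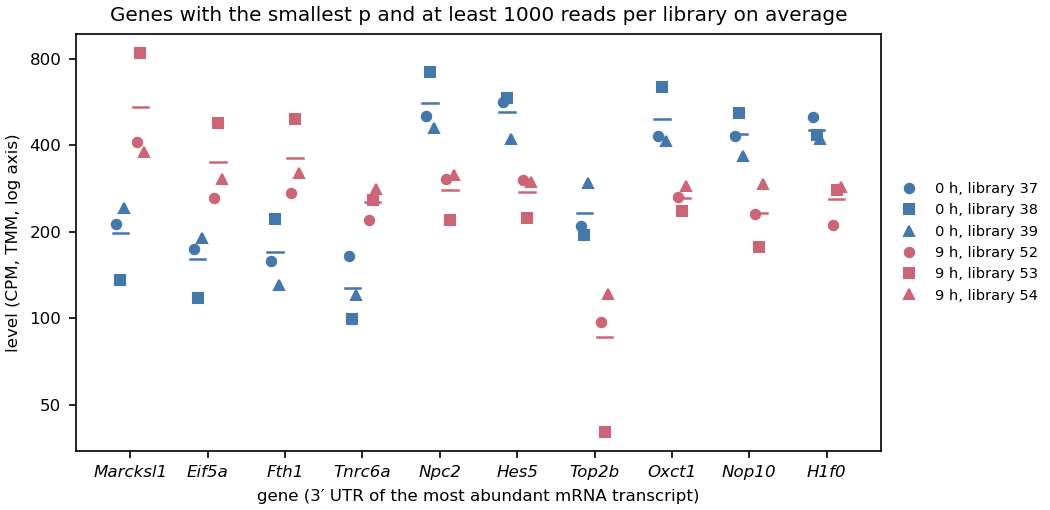
Level (CPM, TMM-scaled, log axis) of the 10 genes with the smallest p that had at least 1000 reads per library on average, a limit set after the values were seen, in each 0 h library (blue) and 9 h library (red); short lines are means of 3. Groups do not overlap in any of the 10, which were selected by their p; library 53 (red squares) is the extreme one in 8 of them.

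Several of the genes with the smallest p were all but absent from one group, and for these the reads themselves are given. Ercc1, the DNA repair endonuclease partner of XPF, had no read in the 3 libraries at 0 h and 148, 105 and 25 reads at 9 h. Rhbdf1, an inactive rhomboid protein that escorts the protease ADAM17, had 0, 0 and 1 reads against 44, 130 and 119. These are the genes that DESeq2 called, Ercc1 by 1 transcript and Rhbdf1 by 2, each at an adjusted p of 0.00063. Both passed the read filter only through their reads at 9 h, the group where they are high. Those adjusted p-values therefore support no conclusion. Usp27x, a deubiquitinase, had 0, 0 and 1 reads against 47, 214 and 53, and Rnf135, a ubiquitin ligase, had none against 60, 15 and 104. Usp27x and Rnf135 likewise passed the filter only through their reads at 9 h, so that their small p supports no conclusion. Minpp1, an inositol polyphosphate phosphatase, had 3, 14 and 1 reads against 70, 136 and 212, and Cplx1, a complexin of the synaptic vesicle machinery, had 31, 2 and 20 against 91, 183 and 151.

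The opposite pattern occurred too. Papolg, a nuclear poly(A) polymerase, had 171, 121 and 492 reads at 0 h and 11, 0 and 1 at 9 h. Hoxc9, a posterior Hox gene, had 163, 73 and 129 against 0, 0 and 1, and Lrrc24 had 301, 86 and 80 against 3, 0 and 0. Papolg, Hoxc9 and Lrrc24 passed the filter only through their reads at 0 h, where they are high, and their small p supports no conclusion either. Among all genes tested, 38 had no read in any 9 h library and 2 had none in any 0 h library, while 79 and 6 had at most 3 reads over the group. The 85 genes at that floor had at most 86 reads per library on average. Depth on distinct 3′ UTRs was 3602511 to 6977661 reads at 0 h and 1504166 to 4466071 at 9 h. A floor in raw reads is reached more easily in the shallower group, so that these counts cannot be compared between groups.

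Among the transcripts that voom called, Rps14, a small-subunit ribosomal protein, had 1794, 2165 and 1789 CPM at 0 h and 1345, 361 and 1204 at 9 h. Its voom log2 fold change was -0.67 (adjusted p = 0.00323), and in edgeR it was -0.98 (SE 0.402), which did not pass. Snrpf, a core protein of spliceosomal particles, had 109, 16.8 and 173 CPM against 239, 257 and 247, with library 38 far below the others of its group. Marcks, Marcksl1 and Atp11b were also called by that method, in the directions given.

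No gene of the stress programs passed the adjusted test. Of 30 p53 targets 21 were tested and 0 were called. At an unadjusted p under 0.05 there were 0, against 2.13% higher and 1.81% lower over all genes. With shares this small, 0 of 21 does not show that the list was unchanged. Without overlap, 2 were lower and 0 higher (7.59% and 5.07% of all genes). The median log2 fold change was -0.14. Mdm2, the ubiquitin ligase that p53 induces against itself, had 0.42 (95% interval -0.59 to 1.42), and Trp53inp1, a p53 cofactor and target, had -1.31 (-2.96 to 0.33). The summed level of the list was 452 ± 42.1 CPM (n = 3) at 0 h and 438 ± 116 (n = 3) at 9 h. No p53 target had an interval within 2-fold either way. Of 18 tested genes of the integrated stress response, Asns (asparagine synthetase) was higher at the unadjusted threshold (2.13% of all genes), at 28.2, 24.2 and 36.6 CPM against 39.6, 140 and 55.8, while Atf4 itself had -0.03 (-0.79 to 0.73). The sum of that list was 1454 ± 208 and 1547 ± 41.99 CPM.

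In the unfolded protein response, with 17 genes tested and a median of -0.14, Xbp1 (1.53) and Calr (0.67) were higher at the unadjusted threshold (2.13% of all genes) and Hspa5, the chaperone BiP, had -0.56 (-1.21 to 0.10). Xbp1 encodes the factor spliced by IRE1, and Calr the calcium-binding chaperone calreticulin. Heat shock genes had a median of 0.04 over 14 tested, with 5 bounded within 2-fold. None was past the unadjusted threshold (2.13% of all genes higher and 1.81% lower). Their sum was 3251 ± 195 and 3130 ± 382 CPM. NRF2 targets had a median of 0.12 over 15, with Fth1 higher at the unadjusted threshold (2.13% of all genes). Of 13 immediate early genes, Ier5 was lower at that threshold (1.81% of all genes) and 10 estimates were negative. Only 2 interferon response genes had enough reads to be tested.

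Genes of ribosome production were given in 2 lists. Of 61 nucleolar ribosome biogenesis genes tested, 4 were higher and 2 lower at the unadjusted threshold (2.13% and 1.81% of all genes), and the median was -0.04, the same as for all genes. Their sum was 3507 ± 323 CPM (n = 3) at 0 h and 3416 ± 147 (n = 3) at 9 h. Ncl, which encodes nucleolin, the major nucleolar protein, had a change of -0.05 (-0.55 to 0.46). Of 65 ribosomal protein genes tested, 5 were lower and 0 higher at the unadjusted threshold (1.81% and 2.13% of all genes), with a median of -0.05 and 17 bounded within 2-fold. Summed over the list, ribosomal proteins had 15736, 18524 and 17038 CPM at 0 h and 14961, 12707 and 13835 at 9 h. These sums, which the most abundant members dominate, did not overlap and gave a ratio of 0.809 (0.842 without library 53). Rpl26, a large-subunit protein, had 1082, 1334 and 1435 CPM against 1131, 584 and 777 (-0.63), so that library 52 overlapped with the 0 h group. Ribosomal protein messages have many processed pseudogenes, and only uniquely placed reads were counted here.

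Pyrimidine uptake and metabolism, the route by which 4sU itself enters, had 22 genes tested and a median of -0.09. At the unadjusted threshold there were 0 (2.13% of all genes higher and 1.81% lower). Slc29a1, the equilibrative nucleoside transporter ENT1, had 0.3, 0.2 and 10.7 CPM against 12.4, 41.3 and 21.3, with an interval from -0.99 to 6.43. Cad, which encodes the first steps of pyrimidine synthesis, had 48.9, 107 and 60.9 CPM against 67.5, 205 and 95.8. Neither bounded a 2-fold change.

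Mitosis genes had a median of -0.32 over 35 tested, 26 of them negative and 3 past the unadjusted threshold, all lower (1.81% of all genes). Their sum was 2834, 2493 and 2744 CPM at 0 h and 2159, 1970 and 2034 at 9 h, without overlap (ratio 0.764, and 0.779 without library 53). Of its genes, 4 of 35 were lower without overlap, against 7.59% of all genes. Ube2c, which loads ubiquitin for the anaphase-promoting complex, had 345, 318 and 361 CPM against 298, 106 and 144. Ncapd2, a condensin subunit, had 199, 176 and 178 CPM against 115, 110 and 97.2. Top2a, the topoisomerase of proliferating cells, had 333, 384 and 366 CPM against 188, 411 and 163, so that library 53 was the highest of the 6. DNA replication genes had a median of -0.02 over 42, with 1 lower past the unadjusted threshold (1.81% of all genes) and 8 lower without overlap (7.59% of all genes). Their sum was 1774, 2109 and 1936 CPM against 1611, 1624 and 1932, so that library 54 alone overlapped with the 0 h group. Whether the 2 lists differ was not tested.

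Among metabolic lists, oxidative phosphorylation genes had a median of -0.11 over 75 tested, with 20 bounded within 2-fold, and 1, Atp5b, higher at the unadjusted threshold (2.13% of all genes). Their sum was 12382 ± 423 CPM (n = 3) at 0 h and 11412 ± 595 (n = 3) at 9 h, without overlap, a ratio of 0.922; without Atp5j2, the member whose mean differed most, the sums overlapped (0.943). Cholesterol genes had a median of 0.16 over 23, with 1 higher and 0 lower at the unadjusted threshold (2.13% and 1.81% of all genes). Without overlap, 2 were higher and 5 lower (5.07% and 7.59% of all genes). Hmgcs1, an early enzyme of the pathway, had 989, 787 and 764 CPM against 715, 636 and 561. Glycolysis and hypoxia genes had a median of 0.18 that took the other sign in several alternatives (-0.28 to 0.22), and the 2 of 24 past the unadjusted threshold, Gpi1 and Pfkl, were lower (1.81% of all genes).

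Of the 27 neuron markers, all of them tested, 17 had an interval within 2-fold either way and the median was 0.02. Elavl3, a neuronal RNA-binding protein, had 1600, 1169 and 1193 CPM at 0 h and 1796, 1961 and 1868 at 9 h (0.51, SE 0.201), and Cplx2, a complexin, had 27.9, 24.97 and 56.9 against 77.9, 159 and 84.4 (1.54). Ncam1, the neural cell adhesion molecule, had 1477, 1192 and 1209 CPM against 1309, 2049 and 1283, with library 53 well above the rest. The ratio of the marker sums was 1.03, and 0.943 without library 53.

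Proneural and neuronal transcription factors had a median of -0.32 over 25 tested, with 17 negative. They summed to 2719, 2951 and 2629 CPM against 2410, 2160 and 2339, without overlap (ratio 0.832, 0.858 without library 53 and 0.930 without Lhx1). Lhx1, a LIM homeodomain factor of spinal interneurons, had 610, 997 and 672 CPM against 495, 217 and 596, and Insm1, a factor of intermediate progenitors, had 91.4, 56.5 and 97.9 against 146, 270 and 123. Notch effectors and Id genes, which oppose neuronal differentiation, had a median of -0.08 over 17, 8 of them positive. Their sum was 1465 ± 87.7 CPM and 1153 ± 122 without overlap, a ratio of 0.787 (0.828 without library 53). Hes5, itself selected by its small p, made up 524 and 275 CPM of these means, and without it the sums overlapped, at 995, 865 and 964 CPM against 849, 807 and 977 (ratio 0.932; members were left out of sums after the values were seen). Sox2, a progenitor factor, had 489, 652 and 429 CPM against 325, 302 and 384, whereas Vim (vimentin) had 994, 834 and 1073 against 1148, 1438 and 1032.

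Retinoic acid response genes had a median of -0.10 over 12 tested, 4 of them bounded. Cyp26b1 had 1131, 1495 and 1202 CPM against 979, 520 and 948 (-0.64, 95% interval -1.19 to -0.10), and Nr2f1, an orphan receptor that retinoic acid induces, had 1136, 1166 and 1093 against 794, 1238 and 947. Hox genes, with 22 tested, had 15 negative estimates, a median of -0.18 and 2 past the unadjusted threshold in each direction (2.13% of all genes higher and 1.81% lower). Hoxb9 had 608, 945 and 737 CPM against 496, 308 and 524, while Hoxb3 of the same cluster had 795, 773 and 745 against 933, 831 and 834. Zfp zinc finger genes, many of which have short-lived messages, had a median of 0.02 over 250 tested, 5 higher and 2 lower at the unadjusted threshold, against 2.13% and 1.81% of all genes.

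In all, summed levels did not overlap between 0 and 9 h in 6 of 27 lists, each lower at 9 h; the sixth was the endoderm markers, near 0 throughout. Over single genes, 5.07% were higher and 7.59% lower without overlap. The list sums were added after the values had been seen and have no test. Scaled to total reads instead, 6 were lower and 1, the Zfp genes, was higher. Without library 53, 11 were lower and 1 higher with TMM, and 9 and 2 with total reads. Ribosomal proteins, mitosis, oxidative phosphorylation, Notch effectors with Id genes and proneural factors were lower without overlap in each of these 4 settings. The settings reuse the same libraries and are not independent. Without the member whose mean differed most, the sums overlapped for oxidative phosphorylation (Atp5j2) and Notch effectors with Id genes (Hes5). They stayed lower without overlap for ribosomal proteins, mitosis and proneural factors.

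**Figure D3:**
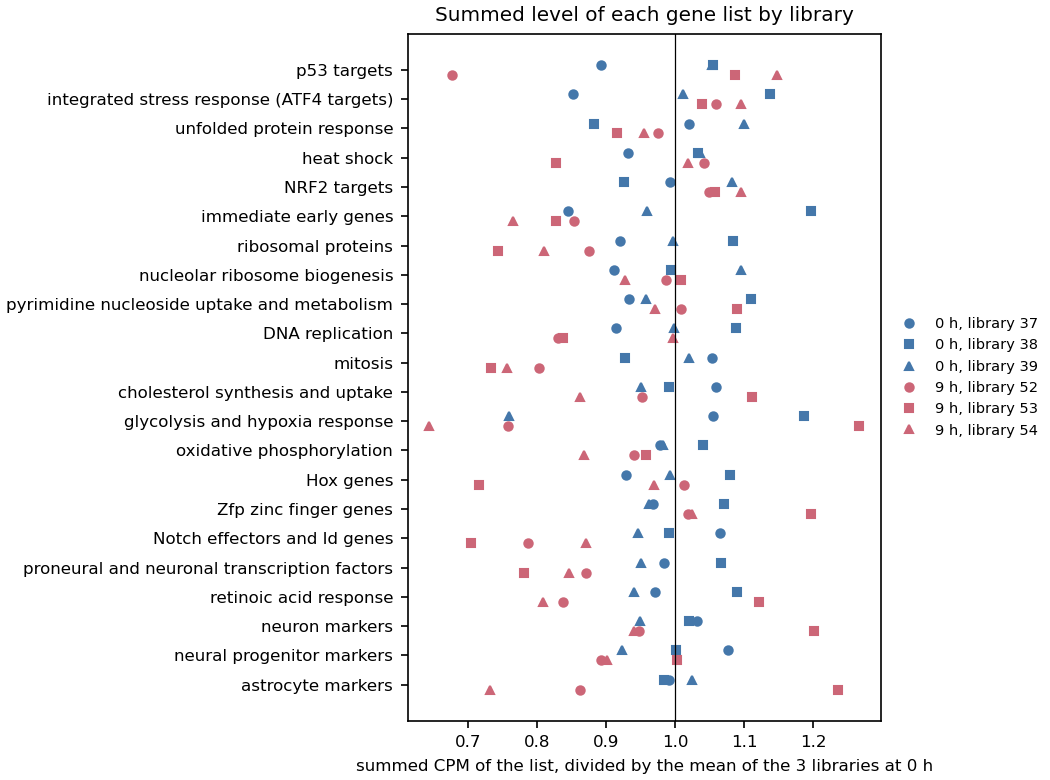
Summed CPM of each list in each of the 6 libraries, divided by the mean of the 3 libraries at 0 h; blue symbols are 0 h and red symbols 9 h, and the vertical line marks that mean. Red lies wholly left of blue for ribosomal proteins, mitosis, oxidative phosphorylation, Notch effectors and proneural factors, and library 53 (red squares) sets the range in many others; lists with a mean sum under 100 CPM at 0 h are not drawn.

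Exposure for other lengths of time shared the unlabeled libraries, so values are set side by side only. At the second and the third time points of 4sU, edgeR called 0 of 16662 transcripts each (0%), with 404 (2.42%) and 373 (2.24%) at an unadjusted p under 0.05. DESeq2 called 3 higher and 18 lower at the second and 8 and 7 at the third, and voom 0 and 1 lower. At the end of 15 h of labeling, 1 transcript rose (0.0064%) and 10 fell (0.064%) of 15615. These calls rested on single libraries: leaving out library 7 gave 0 and 0, and leaving out library 8, 9 or 38, or scaling to total reads, gave 0 higher and 1 lower. Exposure cannot be told apart from the catabolic course, whose 3 libraries had 23.0% to 25.99% of mapped reads on 3′ UTRs against 31.5% to 33.02% at 0 h. Hnrnpd, the AU-rich element binding protein AUF1, fell by 1.26 on the log2 scale (adjusted p = 0.0329, edgeR), with -0.88 at 9 h and -0.76 there without libraries 38 and 53. Tubb2b fell by 0.72 (adjusted p = 0.033), with -0.66 at 9 h and -0.28 without those libraries. Atp6ap1, a subunit of the vacuolar proton pump, fell by 1.35 (adjusted p = 0.0495), with -0.61 at 9 h and -0.19 without them. The transcript that rose, Cnih4, an exporter of cargo from the endoplasmic reticulum, had 1.28 (adjusted p = 0.033) and 0.11 at 9 h.

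Little label was in the RNA at the second time point. The conversion rate was 0.213% to 0.241% there and 1.58% to 2.25% at the third, against 0.136% to 0.190% at 0 h. The genes of smallest p at 9 h had these values at the other times, each against the same 0 h libraries. Marcksl1 had 0.36 at the second time point, 0.19 at the third, 1.46 at 9 h and 0.69 at 15 h. Eif5a had 0.52, 0.16, 1.12 and 0.47, and Fth1 0.29, 0.35, 1.09 and 0.63. Npc2 had -0.62, -0.48, -1.002 and -0.77, and Hes5 -1.36, -0.87, -0.93 and -0.76. Marcks had 0.35, 0.44, 0.62 and 0.01. Top2b was near 0 at the second and the third time points, at 0.07 and 0.09, and had -1.43 and -1.03 at 9 and 15 h.

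Removal of 4sU shared no library with the 9 h comparison. After removal 85 transcripts rose (0.562%) and 20 fell (0.132%) of 15112, relative to the end of labeling. The size of these sets hung on single libraries: leaving out library 7 gave 3 and 2, and leaving out library 17 gave 324 and 108, with 5 to 19 higher and 3 to 8 lower without each of the others. At 9 h of 4sU the 85 had a median log2 fold change of -0.45, with 63 negative, and the 20 had 0.44, with 14 positive. Over 772 3′ UTRs with at least 1000 reads the Spearman correlation of the changes was -0.315, a description across UTRs that are not independent and that differ in depth. It rested on libraries 38 and 53. It was -0.109 without library 38, -0.198 without library 53 and 0.0578 without both, a combination chosen after the values were seen. Without both, the 85 had a median of 0.06 with 48 positive, and the 20 had 0.16.

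Snrpf, which fell after removal (-2.09, SE 0.305, adjusted p = 0.0126, edgeR), was lowest in library 38 among the 6 libraries of the 9 h comparison.

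**Figure D4:**
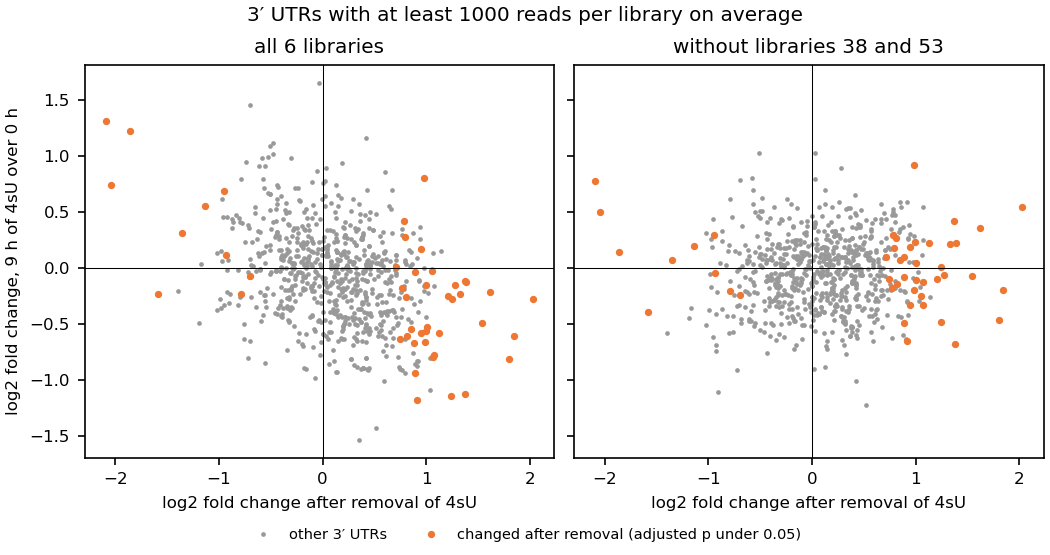
Log2 fold change at 9 h over 0 h of 4sU (vertical) against that at 9 h after removal over the end of labeling (horizontal) for 3′ UTRs with at least 1000 reads per library on average, with all 6 libraries (left) and without libraries 38 and 53 (right); orange points changed after removal. The downward slope on the left (Spearman -0.315) is absent on the right (0.0578).

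In undifferentiated cells, 9 h of 20 µM 4sU gave 0 calls among 16570 transcripts (0%), with 413 at an unadjusted p under 0.05 (2.49%); DESeq2 called 8 higher and 2 lower. The Spearman correlation of the changes with those at D6 was 0.145 over 764 3′ UTRs, and 0.132 to 0.159 without library 38, 53 or both. Marcksl1 had 0.00 (SE 0.386) at D0, Eif5a -0.12 (SE 0.301), Fth1 -0.19 (SE 0.191) and Npc2 -0.22 (SE 0.312). The test of the difference between states called 0 of 17860 transcripts (0%), with 930 at an unadjusted p under 0.05 (5.21%), and its lowest adjusted p was 0.201; DESeq2 called 34 higher at D6 than at D0 and 80 lower. For Marcksl1 the difference was 1.41 (95% interval 0.25 to 2.57, adjusted p = 0.880). Marcksl1 was selected by its small p in the D6 comparison, and the difference reuses those values. Its interval is therefore no independent test.

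The smallest p-values of that difference came from genes with few reads in at least 1 state. Timp3, an inhibitor of matrix proteases, had 41, 85 and 117 reads at 0 h and 1, 3 and 1 at 9 h in D6 cells, and 789, 396 and 866 against 1199, 1593 and 1141 in D0 cells. Mthfd1l, a mitochondrial folate enzyme, had 108, 67 and 322 against 7, 4 and 2 at D6, and 967, 499 and 1559 against 803, 1305 and 874 at D0. Both had fewer reads at D6 than at D0 before any 4sU. Ccdc102a had 88, 47 and 176 reads against 2, 2 and 1 at D6 and 617, 815 and 660 against 650, 1281 and 988 at D0, and Slc35f2, a solute carrier, had 99, 18 and 142 against 0, 1 and 0 at D6 and 1021, 759 and 612 against 955, 1475 and 453 at D0. Celsr3, a neuronal cadherin of axon guidance, had few reads at D0 instead, with 0, 2 and 1 against 51, 188 and 79. At D6 Celsr3 had 67.6, 134 and 62.4 CPM against 38.9, 105 and 56.03, so that the groups overlapped. Pou3f3, a POU factor of the neural tube, had 113, 162 and 121 CPM against 108.3, 107.9 and 104 at D6, and 98, 4 and 53 reads against 2, 3 and 2 at D0. Rras, a Ras-family GTPase, and Supt4b, a copy of a transcription elongation factor subunit, were read at D6 almost wholly in library 53, with 0, 0 and 1 reads against 0, 242 and 1, and none at 0 h against 0, 85 and 0. Supt4b had few reads at D0 as well, with 26, 0 and 44 against 0, 0 and 0.

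The change at 9 h was set beside how much label each message had taken up. Over the same 772 3′ UTRs its Spearman correlation was 0.121 with the conversion rate at 9 h, 0.0245 with the share of T in the UTR, 0.151 with UTR length and -0.0966 with mean reads. In the 155 UTRs with the lowest conversion rates (up to 3.23%) the median log2 fold change was -0.15, and in the 155 with the highest (from 4.48%) it was 0.02. These are descriptions across UTRs within the same 6 libraries.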

How the data were processed

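P19 libraries (QuantSeq 3′, iodoacetamide-treated, NovaSeq single-end, no molecular identifiers) were processed by the authors with SLAMdunk 0.3.3 on mm10 (file headers), with SNPs masked. The deposited values used are raw read counts per 3′ UTR interval, with no multimapped read; deposited covered-T and conversion counts gave conversion rates. The authors' CPM, reads over all mapped reads, were used only to recover mapped totals, and the deposited conversion rate, a fraction of covered T per interval by the authors, was not used. The methods name GENCODE, whereas the files carry RefSeq transcripts. Labels and design text differ on the middle hours, hence "the second" and "the third" time point. Counts were summed per RefSeq NM transcript (28190); transcripts sharing a UTR share its reads.

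Tests used edgeR 4.0.16 (robust quasi-likelihood, TMM, filterByExpr, Benjamini-Hochberg 0.05) in R 4.3.3; DESeq2 1.42.0 and limma 3.58.1 (voom) were alternatives, beside other scalings, filters, feature definitions and libraries left out. Scripts were tested on simulated data. The design text calls replicates biological without saying what separated them, so that p-values measure the spread between these samples, which may be technical. The members and lists were chosen with earlier results of these data known. Genes were named by a rule: the 12 smallest p in each direction, up to 4 members per list (the 2 of smallest p and the 2 of highest mean count), and the 5 smallest p in each direction of the state difference; Marcks, Snrpf, Eef1a1, Sox11, Tubb5, Actb and Basp1 were added after seeing values, and a few genes called only elsewhere are named beside those calls. Counting intervals cover these libraries only. Some genes that this rule selects are not reported here.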

Additional observations from a re-analysis of the deposited data

How the results depend on the processing

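Each group had 3 libraries, library 53 had 1504166 reads, and uncalled genes with few reads are not shown to be unchanged. For 9 h of 4sU at day 6, DESeq2 gave 3 higher, and voom with quality weights 3 higher, 3 lower and 1 list gene; every other alternative gave 0, and leaving out single libraries gave 0 in both directions. The other counts past an adjusted p of 0.05 were these, with causes not tested. Undifferentiated: DESeq2 8 higher and 2 lower. Difference between states: DESeq2 34 and 80; leaving out single libraries, 0 to 5 higher (5 without D6 library 39, 1 without D0 library 56) and 0 to 5 lower (5 without D6 library 53, 2 without D0 library 57). Removal: upper quartile 25 higher, total reads 27 higher, a mean of 50 reads 45 higher, DESeq2 851 and 525, voom 558 and 203, no filter 377 and 144; leaving out single libraries, 3 to 324 higher and 2 to 108 lower (lowest without library 7, highest without library 17). The 15 h comparison: total reads 0 and 1, a mean of 50 reads 0 and 1, DESeq2 99 and 165, voom 5 and 49, no filter 17 and 76; leaving out single libraries, 0 to 2 higher and 0 to 6 lower. Second time point: DESeq2 3 and 18. The third: DESeq2 8 and 7, voom 1 lower. Unadjusted p under 0.05 at 9 h held for 364 (1 transcript per gene) to 1773 transcripts (24 libraries in the fit). Leaving out single libraries gave 380 (without library 38) to 1000 (without library 52), with 796 without library 53 and 790 without library 54. List medians were recomputed in 512 alternative values, of which 26 moved beyond their spread and 82 took the other sign; the median over all genes ranged from -0.15 to -0.01. No paired analysis was possible because the library numbers are not shared between groups.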
